A study of Rattus norvegicus with 6 samples.

Results

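The baseline transcriptome of condylar cartilage is described here from the 3 control (CON) libraries among the 6 libraries of the series. The libraries were chosen by their labels alone. Condylar cartilage, the cap of the mandibular condyle in the temporomandibular joint, was taken from female Sprague-Dawley rats that entered the study aged 6 weeks and were killed 8 weeks later. The CON rats did not receive the unilateral anterior crossbite (UAC), a dental device that loads the joint abnormally, and the UAC libraries were left aside. Each value is from bulk tissue, so more cells of a type and more RNA per cell cannot be told apart. The number of rats behind a library is not given in the sources used here, so the spread between libraries may be partly technical.

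The cartilage of the condyle is a secondary cartilage. A fibrous layer rich in type I collagen covers it, and beneath lie proliferating cells, chondrocytes that make type II collagen and aggrecan, and hypertrophic chondrocytes that make type X collagen. The deepest cartilage mineralizes and borders on bone, where osteoclasts resorb it and marrow follows. Mandibular tissue comes from the neural crest of the first pharyngeal arch, which does not use the Hox genes.

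The gene file assigned 85923949, 80960444 and 84723826 counts to CON libraries 1, 2 and 3. Pairs of libraries differed more than counting alone allows, with a chi-square per degree of freedom between 64.0 and 81.6, so no library was a copy of another. Levels are given in FPKM, fragments scaled to transcript length and library size, as mean ± SD (n = 3 libraries). The coefficient of variation (CV) is the SD as a percent of the mean. Of 44746 genes in the file, 34245 had a count in at least 1 library. Among 21660 protein-coding genes with a symbol, 12009 (55.4%) had a mean of at least 1 FPKM, 2529 reached 10 FPKM, 197 reached 100 FPKM and 13 reached 1000 FPKM. A further 4509 had 0 counts in all 3 libraries. All 37 mitochondrial genes in the file were listed with 0 counts, so nothing is said here of mitochondrial RNA.

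Type I collagen led the protein-coding genes. Col1a1, its alpha 1 chain, had 14986, 16938 and 14960 FPKM in libraries 1, 2 and 3 (15628 ± 1135 FPKM, CV 7.26%) and alone held 8.54%, 9.75% and 8.22% of the FPKM of protein-coding genes. Library 2 was highest, and the other libraries lay close together. Sparc, the secreted collagen-binding protein osteonectin, followed with 4914, 5290 and 4976 FPKM (CV 3.99%). Col1a2, the alpha 2 chain, was listed at 2 loci on chromosome 4, with 3555 ± 200 FPKM at 31532770-31569741 and 2134 ± 98.7 FPKM at 29528399-29564768. Reads can be split between such copies, so the level of each locus is uncertain. The summed FPKM of both loci was 5543, 6032 and 5494, and Col1a1 stood at 2.70, 2.81 and 2.72 times that sum. The 10 most abundant protein-coding genes held 19.8%, 21.1% and 19.9% of the protein-coding FPKM, and the first 1000 held 63.6%, 64.0% and 63.8%.

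After these came the alpha globins, Spp1 (osteopontin), Col2a1, Bglap (osteocalcin), Ctsk (cathepsin K of osteoclasts) and the protease inhibitor Cst3. Col3a1 of fibrous tissue was at rank 11 among protein-coding genes, Acp5 (the tartrate-resistant phosphatase of osteoclasts) at rank 12, and Bgn (biglycan) at rank 13. S100a9 of neutrophils was at rank 14, Hbb (a beta globin) at rank 15 and Lyz2 (lysozyme) at rank 16. The head of the protein-coding list thus held genes of fibrous tissue, bone, cartilage, osteoclasts, red cells and myeloid cells side by side.

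**Figure D1:**
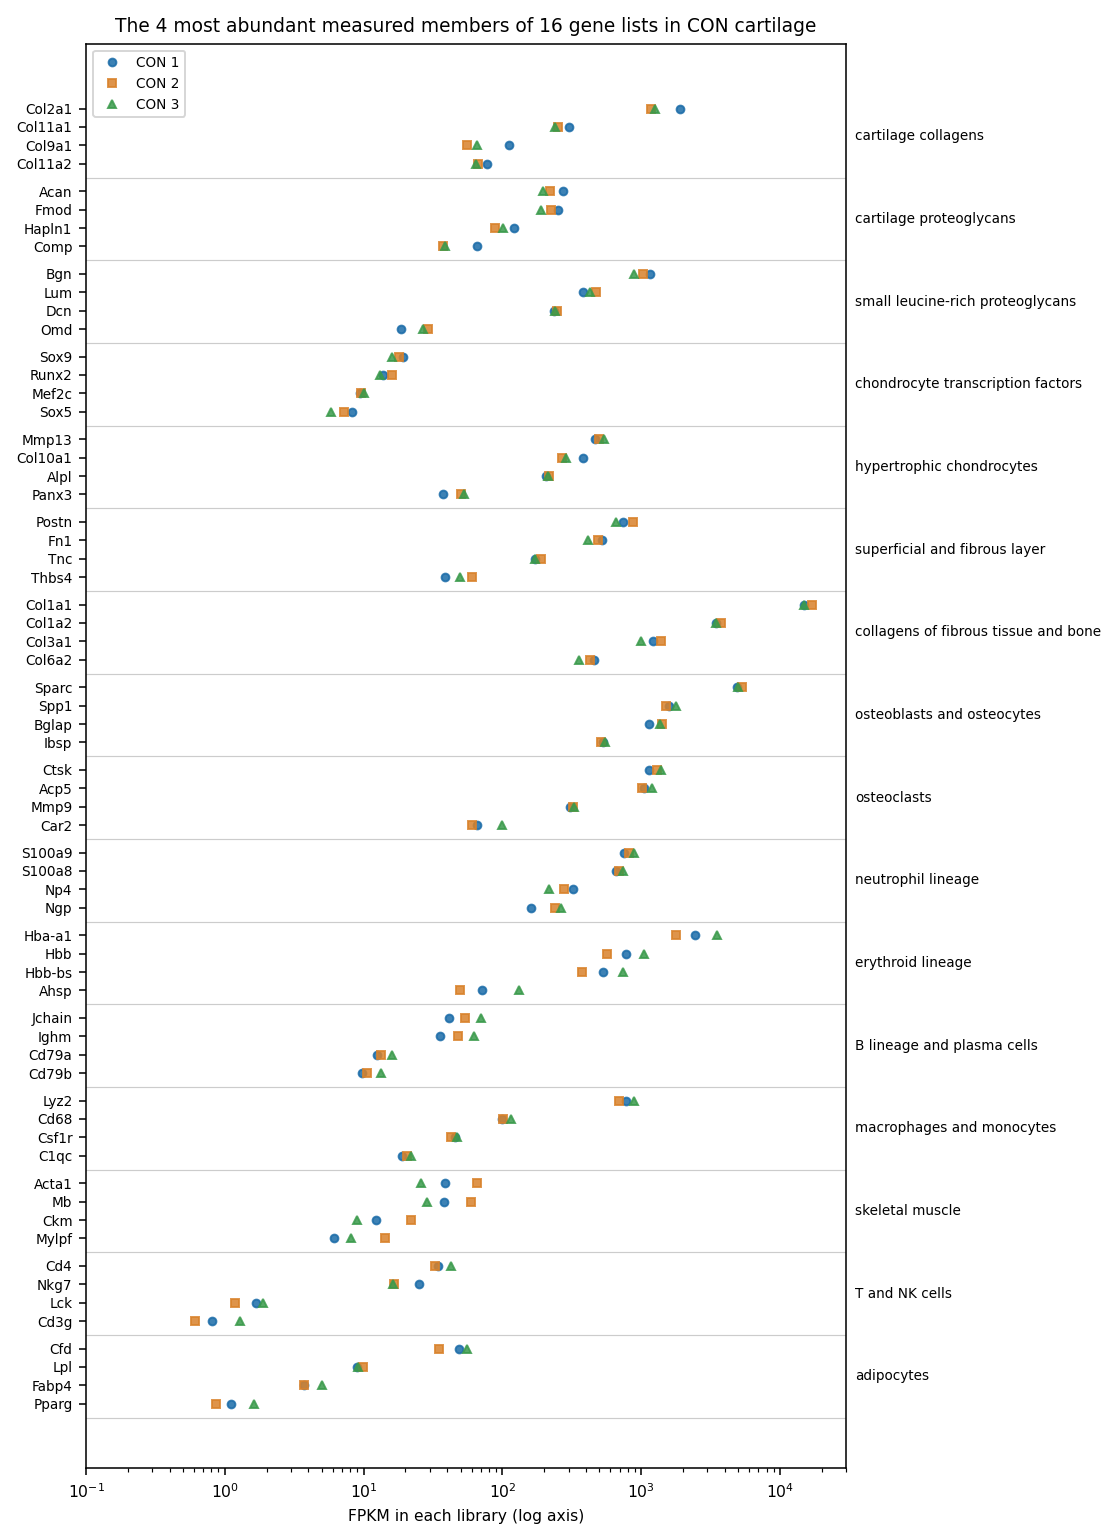
FPKM in each CON library (log axis) of the 4 most abundant measured members of 16 gene lists, with 1 point per library. Col1a1 lies farthest right at 14960 to 16938 FPKM. The globin points spread from library 2 (lowest) to library 3 (highest), and Acta1 and Mb run the other way.

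The label was checked against cartilage markers. All 7 cartilage collagens listed were above 1 FPKM, with a median of 69.5 FPKM. Col2a1, the main fibrillar collagen of cartilage, had 1909, 1182 and 1252 FPKM (1447 ± 401 FPKM) and was highest in library 1. Col11a1, which sets the diameter of the type II fibril, had 300.2, 252 and 238 FPKM. Col9a1, a chain of the type IX collagen on the fibril surface, had 112, 55.3 and 65.3 FPKM. Every one of the 7 was highest in library 1, with CVs of 10.1% (Col11a2) to 39.5% (Col9a2). Col11a2 shares its locus in the file with Rxrb. Over all protein-coding genes at 1 FPKM or more, 30.2% were highest in library 1.

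Of 18 proteoglycans and adaptor proteins of cartilage, 16 were above 1 FPKM. Acan, the core protein of aggrecan, had 272, 222 and 197 FPKM, and Hapln1, which links aggrecan to hyaluronan, had 120, 88.0 and 101.2 FPKM. Fmod (fibromodulin) had 221 ± 31.3 FPKM and Comp, a pentameric adaptor of collagen fibrils, had 47.2 ± 15.9 FPKM. Each of these was highest in library 1. Matn3 had 7.55, 2.84 and 4.70 FPKM, and Cnmd (chondromodulin, an inhibitor of vessel growth) had 5.16, 2.11 and 1.61 FPKM. The CVs of both, 47.2% and 64.9%, were above the 16.5% of Acan. Matn1, a matrilin of many hyaline cartilages, had 4, 0 and 0 counts, and Epyc averaged 0.345 FPKM. Of the 16 genes above 1 FPKM, 11 were highest in library 1, 5 in library 2 and 0 in library 3. The shares over all protein-coding genes at 1 FPKM or more were 30.2%, 21.7% and 48.1%.

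Chondrocyte transcription factors had a median of 6.05 FPKM over 12 genes, against 69.5 FPKM for the cartilage collagens and 5.78 FPKM for the proteoglycans and adaptor proteins. Sox9, the master regulator of the chondrocyte, had 19.2, 17.9 and 16 FPKM. Its partners Sox5 and Sox6 averaged 7.14 ± 1.22 and 2.30 ± 0.252 FPKM. Runx2, needed for hypertrophy and for osteoblasts, averaged 14.2 ± 1.48 FPKM, and Mef2c 9.71 ± 0.334 FPKM. Nkx3-2 averaged 0.103 FPKM, and Barx2 had 0 counts in all 3 libraries, which allows up to 3 counts in each. The median CV of the 9 factors above 1 FPKM was 10.4%, against 27.7% for the cartilage collagens and 17.3% for the proteoglycans and adaptor proteins.

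Genes of hypertrophic cartilage had a median of 17.0 FPKM over 10 genes and ranged from 3.54 to 501 FPKM. Mmp13, the collagenase of the mineralizing front, had 466, 499 and 537 FPKM, and Col10a1, the collagen of the hypertrophic zone, had 382, 268 and 285 FPKM. Alpl, the phosphatase that releases phosphate for mineral, was at 211 ± 6.94 FPKM. Ihh, the signal of prehypertrophic cells, was at 3.54 ± 0.809 FPKM, and its receptor Ptch1 at 11.2 ± 0.634 FPKM. Col10a1 and Ihh were, like Col2a1, highest in library 1, while Mmp13, which osteoblasts also make, was lowest there. Alpl and Panx3 (37.3, 50.1 and 52.5 FPKM) were lowest there too. The list had no common order: of its 10 members above 1 FPKM, 4 were highest and 4 lowest in library 1. Of all protein-coding genes at 1 FPKM or more, 30.2% were highest and 31.0% lowest in that library. The ratio of Col2a1 to Col10a1 in FPKM was 5.0, 4.41 and 4.39.

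The list of the superficial and fibrous layer was led by Postn (periostin) at 740, 871 and 663 FPKM. Fn1 (fibronectin) had 525, 492 and 411 FPKM, and Tnc (tenascin C) 178 ± 10.3 FPKM. Other members were lower: Fbln1, Mkx, Scx, Tnmd and Pi16 averaged 3.58, 1.79, 1.73, 1.29 and 0.977 FPKM. The list had a median of 11.6 FPKM over 14 genes. Of its 12 members above 1 FPKM, 10 were highest in library 2 and 0 in library 3. Of all protein-coding genes at 1 FPKM or more, 21.7% were highest in library 2 and 48.1% in library 3. Fn1 was highest in library 1, and so was Prg4, the lubricin of the joint surface, with 12.7, 6.62 and 5.03 FPKM (CV 49.7%). Gdf5, a signal of developing joints, averaged 0.142 FPKM. Among collagens of fibrous tissue and bone, all 12 measured were above 1 FPKM, with Col3a1 at 1204 ± 205, Col6a2 at 415 ± 51.0 and Col12a1 at 398 ± 28.9 FPKM. Of these 12, 8 were highest in library 2 and 11 were lowest in library 3. The share of all protein-coding genes at 1 FPKM or more that were lowest in libraries 1, 2 and 3 was 31.0%, 45.2% and 23.8%. Small leucine-rich proteoglycans, which regulate fibril width, were led by Bgn at 1025 ± 139, Lum (lumican) at 427 ± 42.9 and Dcn (decorin) at 239 ± 6.07 FPKM.

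Genes of collagen processing had a median CV of 4.47% over 18 members, close to the lower quartile of 4.84% over all protein-coding genes at 1 FPKM or more. Serpinh1, the collagen chaperone of the endoplasmic reticulum, had 610, 628 and 620 FPKM (CV 1.47%). P4hb, a subunit of prolyl hydroxylase, had 192, 191 and 196 FPKM (CV 1.38%). Ppib, a prolyl isomerase, had 142, 138 and 141 FPKM (CV 1.55%). Others varied more, up to 12.6% for Lox, which crosslinks collagen, and 9.95% for Pcolce, which aids its cleavage. The CV of the collagen Col1a1 was 7.26%.

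Bone genes stood above most cartilage genes. All 12 osteoblast and osteocyte entries were above 1 FPKM, with a median of 36.4 FPKM. The entry for Ifitm5, at 13.6 FPKM, is a locus that merges it with Ifitm2 and Ifitm3, so this level cannot be given to Ifitm5 alone. Spp1 had 1573, 1521 and 1773 FPKM, Bglap had 1146, 1403 and 1357 FPKM, and Ibsp (bone sialoprotein) had 527, 517 and 545 FPKM. Dmp1, a matrix protein of osteocytes, was at 107 ± 13.2 FPKM. Sost, the Wnt inhibitor sclerostin made by osteocytes and mineralized cartilage, was at 13.3 ± 2.64 FPKM. No member of this list was highest in library 1, against 30.2% of all protein-coding genes at 1 FPKM or more. The summed FPKM of the list was 8400, 8990 and 8930, against 2593, 1664 and 1736 for the cartilage collagens, and 4914 to 5290 FPKM of the bone sum were Sparc, which chondrocytes and fibroblasts also express.

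Of 12 osteoclast genes, 11 were above 1 FPKM. Ctsk had 1136, 1293 and 1380 FPKM, Acp5 had 1051, 1019 and 1205 FPKM and Mmp9, a gelatinase also made by neutrophils, had 309, 325 and 329 FPKM. Car2, the carbonic anhydrase that supplies acid and is also abundant in red cells, had 65.8, 60.2 and 99.7 FPKM, with library 3 highest as for the globins. Calcr, the calcitonin receptor, averaged 0.975 FPKM. Dcstamp, needed for fusion of precursors, had 6.25, 7.03 and 0.944 FPKM. Tnfsf11 (RANKL), the cytokine that drives osteoclast formation, had 289, 310 and 0 counts, which is described further with the genes missing from 1 library.

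Marrow lineages were present as well. The alpha globin locus on chromosome 10 had 2456, 1774 and 3489 FPKM, and Hbb, on chromosome 1, had 778, 565 and 1054 FPKM. Ahsp, the chaperone of alpha globin, had 71.3, 49.8 and 132 FPKM, and Klf1, the erythroid transcription factor, had 5.74, 3.90 and 10.6 FPKM. All 12 erythroid genes measured, in which Hba-a1 and Hba-a2 are 1 locus, were highest in library 3 and lowest in library 2, with a median CV of 35.8%. The median log2 deviation from the mean of the libraries was -0.01, -0.49 and 0.54. The share of all protein-coding genes with their highest value in library 3 was 48.1%.

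Of 14 neutrophil genes, 13 were above 1 FPKM. S100a9 and S100a8, which form calprotectin, averaged 816 ± 71.4 and 697 ± 38.7 FPKM, and their ratio was 1.13, 1.18 and 1.20. A locus that merges Np4 with other defensin genes had 324, 279 and 217 FPKM, and Ngp, a granule protein of later stages, had 162, 240 and 265 FPKM. Mpo (myeloperoxidase), Elane (elastase), Prtn3 and Ctsg, which are made by promyelocytes, were all highest in library 1, at 116, 66.3, 20.7 and 22.2 FPKM. The same 4 genes were lowest in library 2, at 76.8, 38.3, 13.8 and 14.7 FPKM. S100a8, S100a9, Camp and Ngp, which come on later, were lowest in library 1. Other later genes did not share that order, with Lcn2 at 82.0, 82.1 and 77.4 FPKM and Mmp8 at 32.6, 32.5 and 38.2 FPKM. Of the 13 genes, 6 were highest in library 1, 1 in library 2 and 6 in library 3. The shares over all protein-coding genes at 1 FPKM or more were 30.2%, 21.7% and 48.1%. Ltf (lactoferrin) had 0, 0 and 8 counts.

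B-lineage genes were all above 1 FPKM, led by Jchain at 41.3, 54.0 and 70.4 FPKM and the Ighm locus, which merges several immunoglobulin gene names, at 35.4, 47.7 and 61.9 FPKM. Both are abundant in plasma cells and both were lowest in library 1 and highest in library 3. Of the 12 genes, 9 were highest in library 3, 1 in library 2 and 2 in library 1. The shares over all protein-coding genes at 1 FPKM or more were 48.1%, 21.7% and 30.2%. Genes of B cell precursors did not share 1 order. Igll1 had 10.9, 8.73 and 8.70 FPKM and Vpreb1 had 4.07, 4.01 and 3.83 FPKM, whereas Rag1, which cuts immunoglobulin genes in developing lymphocytes, had 5.02, 5.61 and 7.26 FPKM. Macrophage genes were led by Lyz2 at 782 ± 96.9 and Cd68 at 105 ± 8.88 FPKM. Of these 12 genes, 9 were highest in library 3, against the same 48.1% of all protein-coding genes. Of 12 T and NK cell genes, 3 reached 1 FPKM: Cd4 at 36.4, Nkg7 at 19.3 and Lck at 1.58 FPKM. In rats, macrophages also express Cd4. The defining T cell gene Cd3e averaged 0.402 FPKM, and Gzmb had 0 counts in all 3 libraries.

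Mast cell genes were low, with 4 of 8 above 1 FPKM. Among these is a locus that merges Ms4a2 with Ms4a3, a gene of granulocyte precursors, so its 4.52 ± 0.751 FPKM cannot be given to the mast cell gene. Cpa3, Kit and Cma1 averaged 2.25, 2.04 and 1.76 FPKM. All 11 endothelial and mural genes measured were above 1 FPKM, with CVs of 3.23% (Tie1) to 24.2% (Rgs5) and a median of 6.99%, against 8.25% over all protein-coding genes at 1 FPKM or more. Cspg4 was at 44.8 ± 4.26, Rgs5 at 27.5 ± 6.66, Pdgfrb at 12.5 ± 0.746 and Emcn at 10.5 ± 0.372 FPKM on average. Of the Schwann cell list, S100b, which chondrocytes also express, had 48.6 ± 9.42 FPKM. The defining genes Sox10 and Mag averaged 0.0373 and 0.00553 FPKM. Adipocyte genes were low too, with Adipoq at 0.235 FPKM and Lep at 8, 0 and 0 counts. Cfd and Lpl, which other cells also make, were at 46.7 ± 10.6 and 9.26 ± 0.499 FPKM.

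Skeletal muscle genes marked library 2. Acta1, the actin of the sarcomere, had 38.8, 65.8 and 25.8 FPKM, and Mb (myoglobin) had 38.2, 59.6 and 28.5 FPKM. Ckm (muscle creatine kinase) had 12.3, 21.8 and 8.99 FPKM, and Mylpf (a fast myosin light chain) had 6.12, 14.3 and 8.16 FPKM. Of 13 members above 1 FPKM, 11 were highest in library 2 and 10 were lowest in library 3, with median log2 deviations of -0.11, 0.64 and -0.53. Of all protein-coding genes at 1 FPKM or more, 21.7% were highest in library 2 and 23.8% lowest in library 3. The order of the muscle medians across libraries was the reverse of that of the erythroid genes.

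**Figure D2:**
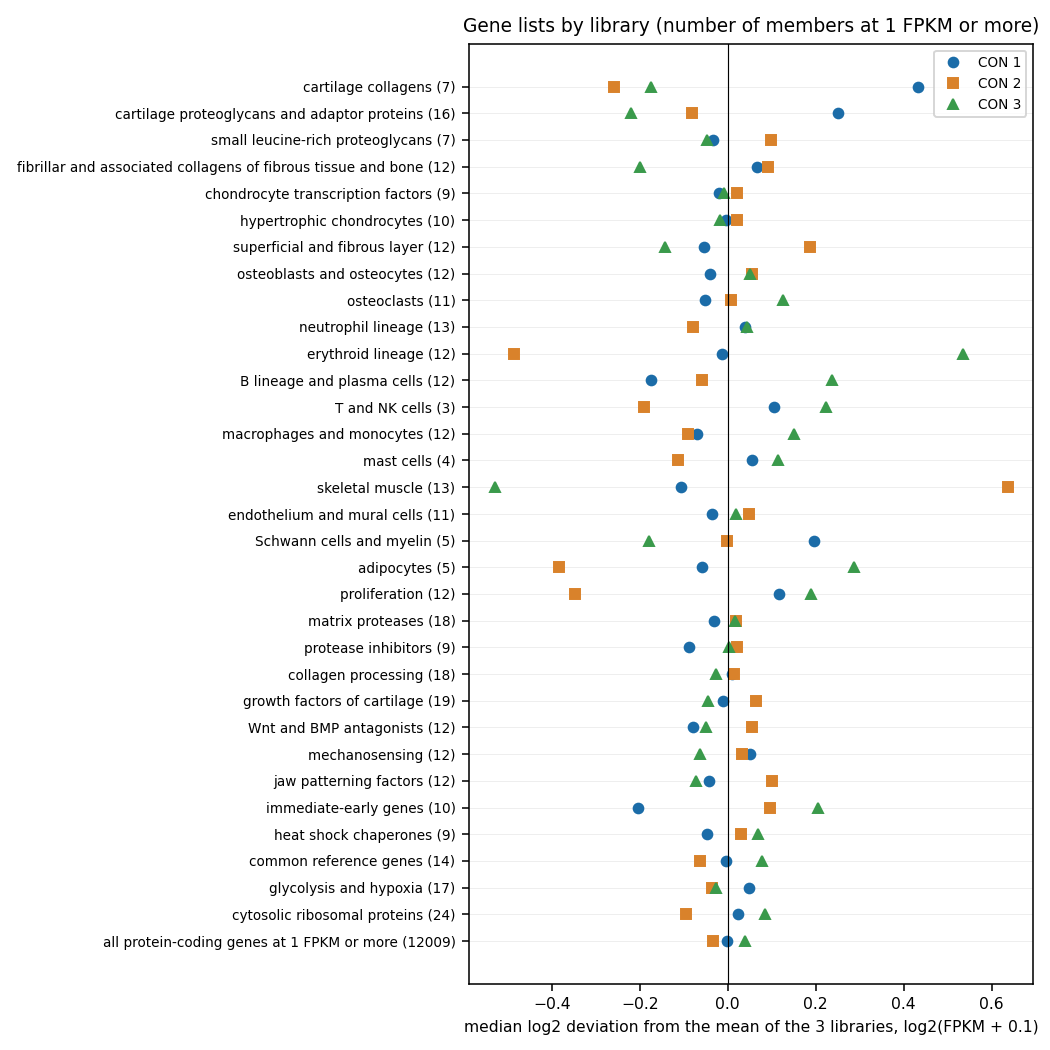
Median log2 deviation of each list from the mean of the 3 CON libraries, on log2 of FPKM plus 0.1, with the number of members at 1 FPKM or more in brackets and 1 point per library. Cartilage collagens lie at 0.43 in library 1, erythroid genes at 0.54 in library 3 and muscle genes at 0.64 in library 2, while all protein-coding genes lie within -0.03 and 0.04.

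Proliferation genes were present throughout. Pcna, the clamp of replicating DNA, had 33.0, 26.6 and 33.9 FPKM, Top2a had 23.4, 16.7 and 24.3 FPKM and Mki67 had 17.6, 12.9 and 20.9 FPKM. Rrm2, which makes deoxynucleotides, had 17.9, 5.32 and 20.7 FPKM (CV 55.9%). All 12 members were lowest in library 2, the library that was also lowest for all 12 erythroid genes and for 45.2% of all protein-coding genes at 1 FPKM or more. Immediate-early genes followed another order, with all 10 members above 1 FPKM lowest in library 1, where 31.0% of all protein-coding genes were lowest. Btg2, Dusp1, Zfp36 and Jun averaged 14.4, 11.5, 10.9 and 8.80 FPKM, and Fos had 4.76, 10.3 and 10.2 FPKM.

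Matrix proteases and their inhibitors were both abundant. All 18 proteases measured were above 1 FPKM, with Mmp2 at 207 ± 28.3 and Ctsb (cathepsin B) at 231 ± 13.9 FPKM beside Mmp13 and Mmp9. The aggrecanases Adamts4 and Adamts5 averaged 2.60 ± 0.315 and 2.88 ± 0.210 FPKM, and Mmp3 (stromelysin) had 1.87, 0.930 and 0.964 FPKM. Cst3 (cystatin C) led the inhibitors with 1057, 1256 and 1461 FPKM. Serpinf1, an antiangiogenic serpin, was at 375 ± 28.3 and Serpine2 at 139 ± 11.6 FPKM. Timp2 and Timp1, inhibitors of metalloproteinases, averaged 124 ± 10.4 and 92.2 ± 12.4 FPKM, and Timp3 12.1 ± 1.61 FPKM.

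Among growth factors, Ptn (pleiotrophin) was highest, at 189, 150.0 and 127 FPKM, with Ccn2 (connective tissue growth factor) at 55.4 ± 7.64 and Gas6 at 43.7 ± 4.82 FPKM. Tgfb1 was at 20.1 ± 0.844, Tgfb3 at 19.1 ± 1.92 and Tgfb2 at 17.2 ± 2.22 FPKM. Fgf2 and Fgf18 were low, at 0.223 and 0.208 FPKM. Secreted Wnt antagonists were led by Wif1, at 80.2, 88.6 and 85.7 FPKM, followed by Sost, Frzb (11.7 ± 1.76 FPKM) and Dkk3 (9.33 ± 1.96 FPKM). Nog, an antagonist of bone morphogenetic proteins, averaged 0.183 FPKM, with 0, 80 and 0 counts. Of mechanosensing genes, Itgb1 was at 86.4 ± 2.46, Cd44 at 62.0 ± 2.72, Itga10 (the collagen II receptor of chondrocytes) at 32.1 ± 2.84 and Sdc4 at 31.9 ± 4.23 FPKM. The channel Piezo1 was at 15.7 ± 1.65 FPKM, Trpv4 at 6.0 ± 1.06 and Piezo2 at 1.06 ± 0.176 FPKM.

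Of the genes that mark position along the body axis, none of 34 Hox genes measured reached 1 FPKM, and 23 had 0 counts in all 3 libraries. The highest, Hoxc6, averaged 0.134 FPKM. Of 17 jaw patterning factors, 12 were above 1 FPKM, with Dlx5 at 19.4, 23.1 and 21.6 FPKM. Dlx3 was at 14.9 ± 1.47, Twist1 at 14.2 ± 1.08 and Prrx1 at 11.3 ± 1.42 FPKM. Hand2 had 0 counts in all 3 libraries, which allows up to 3 counts in each, and Msx1 averaged 0.407 FPKM.

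Genes for glycolysis, the main energy source of cartilage, were led by Pkm at 208 ± 11, Aldoa at 136 ± 1.15, Eno1 at 132 ± 7.39 and Ldha at 120 ± 10.3 FPKM. Of the 17 genes of glycolysis and hypoxia, 11 were highest in library 1, against 30.2% of all protein-coding genes at 1 FPKM or more. Car9, a carbonic anhydrase induced by low oxygen, was at 9.25 ± 0.380 FPKM. Among chaperones, Hsp90ab1 was at 177 ± 7.68, Hspa8 at 152 ± 3.69, Hspa5 at 134 ± 10.8 and Hsp90aa1 at 47.2 ± 3.8 FPKM. Cytosolic ribosomal protein genes had a median of 120 FPKM, led by Rplp1 at 343 ± 16.4, Rplp0 at 295 ± 5.28, Rpl19 at 285 ± 27.2 and Rpl41 at 237 ± 30.2 FPKM. Of 24, 20 were highest in library 3 and 19 lowest in library 2. Of all protein-coding genes at 1 FPKM or more, 48.1% were highest in library 3 and 45.2% lowest in library 2. The common reference genes were not equally steady. Actb averaged 574 FPKM with a CV of 9.76% and Ppia 176 FPKM with 12.3%. Rplp0 (CV 1.79%) and Ywhaz (3.35%) varied least.

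Across the 12009 protein-coding genes at 1 FPKM or more, the median CV was 8.25%, with 4.84% and 14.1% at the quartiles. It was 12.7% for 3295 genes at 1 to 3 FPKM, 6.14% for 1814 genes at 10 to 30 FPKM and 9.72% for the 13 genes at 1000 FPKM or more. Counting error alone would give 4.51%, 1.55% and 0.194% in those ranges. The spread at high levels therefore lay far above these values. They take each count as an independent read and would be too low if reads were counted more than once. The median biological CV, which edgeR estimates after removing counting error and sharing information between genes, was 12.8%. This sharing draws the genes towards a common value, here 17.0%. It is therefore not comparable with the median CV of 8.25% and does not mean that biological spread exceeded the total. A CV of at least 50% was found for 200 genes (1.67%).

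**Figure D3:**
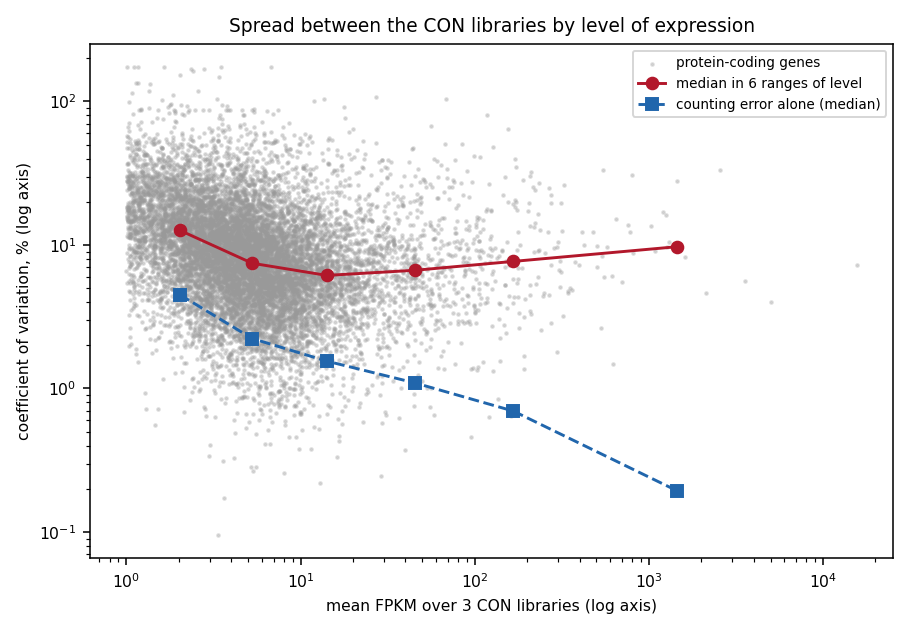
CV (log axis) against mean FPKM (log axis) of the protein-coding genes at 1 FPKM or more in the 3 CON libraries. Grey points are genes, red points the median in 6 ranges of level (12.7% at 1 to 3 FPKM, 6.14% at 10 to 30 FPKM, 9.72% from 1000 FPKM) and blue points the median that counting error alone would give.

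The steadiest genes at 10 FPKM or more were not matrix genes. Pafah1b1, a regulator of dynein, had 12.8, 12.9 and 12.9 FPKM (CV 0.220%), Rps9 had 28.8, 28.9 and 28.9 FPKM (CV 0.247%) and Snrpb, a spliceosome protein, had 16.2, 16.1 and 16.1 FPKM (CV 0.331%). Serinc3, Sec24c, Hcfc1r1, Flna, Kmt2d and Selenot were also among the 10 lowest, with CVs up to 0.522%. Flna, the actin crosslinker filamin A, was the most abundant of them at 95.2, 95.5 and 94.7 FPKM. These CVs were the lowest of 2529 genes and rest on 3 libraries.

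At the other end, 10 genes had CVs of 64.0% to 108%. A copy of Rpl21 on chromosome X had 12.9, 7.86 and 60.9 FPKM, LOC680121, similar to heat shock protein 8, had 32.1, 23.2 and 150 FPKM, and LOC690468, similar to Rpl38, had 7.71, 25.4 and 2.68 FPKM. LOC100360413, like the elongation factor Eef1a1, had 172, 172 and 8.34 FPKM. Of these 10 genes, 5 carry only a locus name. Rpl21, Hist2h3c2 and the LOC genes belong to multicopy families, so reads may have been shared among copies and these levels are uncertain. Tpi1, a glycolytic enzyme, had 14.0, 34.9 and 11.3 FPKM, and Fam111a had 4.18, 32.0 and 18.2 FPKM.

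Some genes were present in a pair of libraries and all but missing from the other. Ndufa1, a subunit of respiratory complex I, had 420, 1 and 642 counts. Nfil3, a circadian and immune transcription factor, had 1086, 1 and 1104 counts, and Cetn3, a centrosome protein, had 0, 370 and 432 counts. Tnfsf11 had 3.19, 3.62 and 0.0001 FPKM, the last being the value listed where nothing was assigned. Spry1, an inhibitor of growth factor signalling, had 1000, 1012 and 17 counts. In all, 22 protein-coding genes with a median of at least 1 FPKM had under 0.1 FPKM in 1 library. Each library was the low one for some of them. The cause was not tested, so a 0 for such a gene does not show that the tissue lacked it.

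Short noncoding RNAs stood above nearly every protein-coding gene in FPKM. Among genes with a symbol the first was Rn7sl1, the RNA of the signal recognition particle, at 33626, 34666 and 30983 FPKM, followed by a second gene of that family (26279 ± 880 FPKM) and 2 genes of U2, a spliceosomal RNA (20181 ± 1442 and 18713 ± 5412 FPKM). Of the 25 genes with a symbol and the highest FPKM, 6 were protein coding and 19 were 7SL, U1, U2, 7SK or the RNA subunits of RNase MRP and RNase P (Rpph1). These RNAs are short, so few counts give a high FPKM: snRNAs held 2.07% to 2.35% of counts but 20.3% to 23.6% of FPKM. Protein-coding genes held 77.9% to 78.6% of counts and 41.9% to 44.4% of FPKM. Single copies can share reads and were unstable, as with a U2 gene on chromosome 10 at 248, 17633 and 17627 FPKM (CV 84.8%). Summed over 86 U2 genes, the FPKM was 60967, 71912 and 63773, with a CV of 8.67%. The 35 genes of 7SL summed to 74527, 73336 and 70985 FPKM (CV 2.47%), the 225 of U1 to a CV of 8.70% and the 426 of 7SK to a CV of 6.40%.

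Hosts of 3 microRNAs, chosen after the values were seen for their place in cartilage, were measured as long RNA. The mature microRNAs themselves were not measured by these files. The gene Wwp2, whose intron carries Mir140, a microRNA characteristic of chondrocytes, had 8.75, 8.34 and 7.48 FPKM. Col27a1, with Mir455 inside it, had 14.1, 12 and 10.9 FPKM. The locus of Mir675, which lies in the noncoding RNA H19, had 55.1, 38.1 and 31.6 FPKM. All 3 were highest in library 1, and Col27a1 is itself 1 of the cartilage collagens above. Of 4 other microRNA loci measured, those of Mir27a, Mirlet7c2 and Mir21 were highest in library 2, and that of Mir199a2 in library 1. Their mature sequences from RefSeq (build GRCr8, 5′ to 3′), shown because these small RNAs are the products of the loci, have the seed (bases 2 to 8), which pairs with targets, in capitals, and share no seed. The Mir140 products lie at chr19:52375314-52375335 and chr19:52375353-52375373 (plus strand), that of Mir455 at chr5:81704881-81704902 (plus strand) and those of Mir675 at chr1:207161800-207161821 and chr1:207161766-207161786 (minus strand):
rno-miR-140-5p: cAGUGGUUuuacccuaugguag
rno-miR-140-3p: uACCACAGgguagaaccacgg
rno-miR-455-3p: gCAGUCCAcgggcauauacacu
rno-miR-675-5p: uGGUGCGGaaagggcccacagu
rno-miR-675-3p: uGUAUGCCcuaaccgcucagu

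Promoters of the most abundant genes were examined for short motifs. RefSeq windows of 300 bases (250 before and 50 after the annotated start, build GRCr8) were matched by symbol to 13692 protein-coding symbols. The TATA box letters TATAAA, on either strand, were in 22 of the 70 matched promoters (31.4%) of the 100 most abundant protein-coding genes, in 10.9% of those from there to rank 1000 and in 6.34% of the rest at 1 FPKM or more. Among promoters of genes below 1 FPKM the share was 15.4%, and it was 14.3% of all 27457 windows in the table. The GC box letters GGGCGG were in 48.6% of the first 100, 68.1% of those from there to rank 1000, 62.7% of the rest at 1 FPKM or more, 34.2% of those below 1 FPKM and 34.9% of all windows. CCAAT was in 48.6% of the first 100 and 37.7% over all windows. By list, the erythroid genes had TATAAA in 4 of 9 and CCAAT in 7 of 9 matched windows. The osteoblast and osteocyte genes had 3 of 9 and 5 of 9, and the neutrophil genes 3 of 12 and 5 of 12. The cartilage collagens had 0 of 5 and 1 of 5, as did the osteoclast genes. Whether these letters go with the order of the libraries was not tested. A match describes letters only and is not a measured site.

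The windows of 4 genes are shown, the most abundant matched gene of the erythroid, neutrophil, fibrous and bone, and cartilage collagen lists, with every match to the 3 motifs (either strand) in capitals. Those of the osteoblast and osteoclast lists, Sparc and Ctsk, were also examined and are not shown. Sparc had no match to the 3 motifs, and Ctsk had only a CCAAT on the reverse strand, 156 bases before the start. Hba-a1 has TATAAA 28 bases before the start and S100a9 42 bases before it. Col1a2 has it 170 bases before the annotated start, and Col11a1 has no TATAAA but 3 GC boxes and 2 matches to CCAAT. On chromosome 10 the Hba-a1 window is chr10:15842531-15842830 (minus strand), and S100a9 is at chr2:178490573-178490872 (minus strand). Col1a2 is at chr4:33518307-33518606 and Col11a1 at chr2:204508886-204509185 (both plus strand).
Hba-a1: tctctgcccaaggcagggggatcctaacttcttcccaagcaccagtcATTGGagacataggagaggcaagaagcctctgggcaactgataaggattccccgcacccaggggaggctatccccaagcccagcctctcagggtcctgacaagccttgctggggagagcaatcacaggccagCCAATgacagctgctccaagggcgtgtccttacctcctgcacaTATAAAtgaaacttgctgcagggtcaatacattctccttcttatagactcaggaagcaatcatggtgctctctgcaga
S100a9: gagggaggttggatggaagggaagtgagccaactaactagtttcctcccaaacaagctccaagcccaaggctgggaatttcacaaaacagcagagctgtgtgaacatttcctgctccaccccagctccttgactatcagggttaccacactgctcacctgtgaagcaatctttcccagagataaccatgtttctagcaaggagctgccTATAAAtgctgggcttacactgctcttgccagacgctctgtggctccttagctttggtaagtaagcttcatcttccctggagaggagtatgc
Col1a2: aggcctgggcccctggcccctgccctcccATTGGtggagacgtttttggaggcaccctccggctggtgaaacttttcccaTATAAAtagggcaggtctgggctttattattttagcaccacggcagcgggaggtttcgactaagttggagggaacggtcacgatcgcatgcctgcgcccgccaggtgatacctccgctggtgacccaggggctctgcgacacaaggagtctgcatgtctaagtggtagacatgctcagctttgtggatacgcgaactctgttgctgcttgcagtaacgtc
Col11a1: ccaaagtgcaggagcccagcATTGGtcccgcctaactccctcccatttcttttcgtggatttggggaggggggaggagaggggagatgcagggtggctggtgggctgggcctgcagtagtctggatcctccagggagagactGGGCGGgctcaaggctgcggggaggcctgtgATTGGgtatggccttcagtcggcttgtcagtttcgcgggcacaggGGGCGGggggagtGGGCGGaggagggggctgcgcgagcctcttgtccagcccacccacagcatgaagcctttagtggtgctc

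Long noncoding RNAs (lncRNAs) were listed as 15530 transcripts, of which 9388 (60.5%) had a mean of at least 1 FPKM and 2448 were absent from all 3 libraries. Few of those present were known: 135 of 3303 annotated transcripts reached 1 FPKM (4.09%), against 4086 of 5197 intronic (78.6%) and 3951 of 5461 intergenic transcripts (72.3%) assembled by the authors from the study's own reads. Assembly lists what was seen, so these shares are not comparable as rates of expression. Of intergenic transcripts, 79.4% had a single exon, and of intronic ones 68.2%. Single-exon transcripts inside introns and unspliced RNA of the host gene cannot be told apart by these files. The median CV of transcripts at 1 FPKM or more was 17.4%, and 249 of these transcripts (2.65%) were absent from at least 1 library. For protein-coding genes at 1 to 3 FPKM the median CV was 12.7%. That value is per gene and the 17.4% is per transcript, so they are not comparable.

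The most abundant lncRNA was MSTRG.9652.1, a single-exon intergenic transcript at 46517784-46518369 on chromosome 14, with 1197, 1020 and 715 FPKM. MSTRG.9666.2, MSTRG.9666.1, MSTRG.9663.2 and MSTRG.9660.10, also among the first 10, lie within the same stretch of chromosome 14. MSTRG.9660.10 was steady at 278, 297 and 285 FPKM (CV 3.27%), while MSTRG.9666.1 had 1236 FPKM in library 1 and was listed at 0.0001 in the others. MSTRG.17871.1, which overlaps a U2 gene on chromosome 3, had 0.221, 0.243 and 2605 FPKM. The gene entry of the same span, which carries the U2 name, had 14622, 13562 and 11484 FPKM. The locus was thus high in every library, and the jump belongs to 1 transcript of it. MSTRG.22388.1, on the strand opposite a ribosomal RNA gene on chromosome 5, had 405, 506 and 379 FPKM. MSTRG.1154.1, intergenic on chromosome 1, had 454, 372 and 0.0001 FPKM.

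At the locus AC134224 on chromosome 1, the summed level varied less than the leading transcripts. MSTRG.3657.4 had 520.0, 982 and 1059 FPKM, and MSTRG.3657.1 had 845, 36.9 and 0.151 FPKM. The annotated single-exon transcript there, ENSRNOT00000093096, had 76.2, 64.9 and 75.8 FPKM. The 8 transcripts of the locus summed to 1456, 1200.3 and 1584 FPKM, a CV of 13.8%, against 34.1% and 162% for the first 2 of them. At the locus of MSTRG.9666.1 and MSTRG.9666.2 the sum was 2626, 389 and 425 FPKM, and its CV of 112% lay between the 173% and 77.3% of the transcripts. The most abundant annotated lncRNA was ENSRNOT00000076920 on chromosome X, at 103, 97.9 and 109 FPKM (CV 5.58%).

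Of the other classes, the intronic transcripts were led by MSTRG.23835.1 on chromosome 6 (82.3, 119 and 127 FPKM) and MSTRG.3950.1 in Dock8 (93.7, 84.1 and 80.0 FPKM). Among spliced isoforms, MSTRG.12132.1 was second at 133, 127 and 111 FPKM. Second on the opposite strand was MSTRG.20026.1, beside the smaller Col1a2 locus, at 544 FPKM in library 1 and 0.0001 in the others. Whether the libraries kept strand is not given in the sources used here, so reads of a gene and its antisense partner may not be separable. At Runx2 the leading intronic transcript averaged 14.3 FPKM, beside 14.2 FPKM for the gene.

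**Figure D4:**
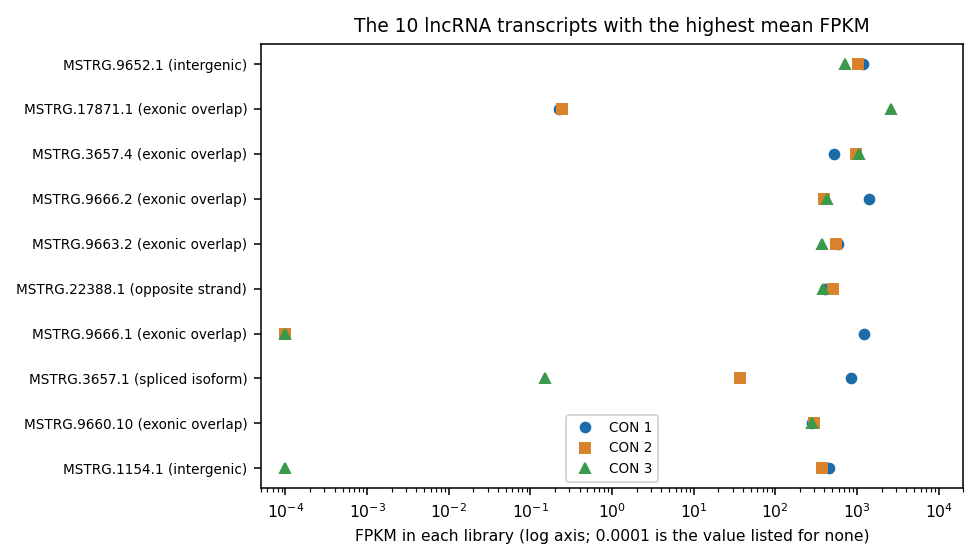
FPKM in each CON library (log axis) of the 10 lncRNA transcripts with the highest mean, named with their class. MSTRG.9660.10 is steady at 278 to 297 FPKM, whereas MSTRG.17871.1 reaches 2605 FPKM in library 3 alone and MSTRG.9666.1 1236 FPKM in library 1 alone. Points are single transcripts, and the locus of MSTRG.17871.1 was high in every library.

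Circular RNAs (circRNAs), closed loops made by back-splicing and recognized by reads across the joined ends, were rare in counts. The 3 libraries held 5049, 4901 and 5079 junction reads, and 4052 of the 7294 circRNAs in the file had at least 1 of them. Libraries 1, 2 and 3 held 1768, 1616 and 1755 circRNAs, of which 64.3%, 62.1% and 63.2% were seen in that library alone. Only 283 circRNAs (6.98%) were found in all 3 libraries, and they took 41.0% of the junction reads. A total of 1944 circRNAs (48.0%) rested on a single read over all 3 libraries. At 2 or more reads in each library 178 remained, at 5 or more 76 and at 10 or more 34. For a circRNA with few reads, absence from a library means that it was not detected at this depth.

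Exonic circRNAs were the largest class, with 3517 members and 69.0% of junction reads, a median of 4 exons and a median span of 8103 bases. Intronic ones (ciRNAs, loops of intron sequence) numbered 289 with 11.4% of reads, and intergenic ones 246 with 19.6%. Of intergenic circRNAs 17.5% were found in all 3 libraries, against 6.48% of exonic and 4.15% of intronic ones. No intergenic circRNA rested on 1 read, whereas 52.1% of exonic ones did, so the sharing of the classes is not comparable.

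The most abundant circRNA was circRNA1572, an intergenic junction on chromosome 6 (144211592-144275272) with 90, 91 and 80 reads. The first from a named gene was circRNA407 of Nfix, a transcription factor of the nuclear factor I family, a single-exon loop on chromosome 19 (25886356-25886887), with 80, 83 and 81 reads. Next were circRNA960 of Arsb, a lysosomal enzyme that degrades dermatan and chondroitin sulfate, with 59, 75 and 78 reads, and ciRNA99 of Ralgapa1 with 48, 66 and 77 reads. CircRNA1594 of AC134224, the lncRNA locus described above, had 58, 63 and 59 reads. The other members of the first 12 were ciRNA56 (42, 56 and 61 reads), circRNA1497 (33, 56 and 47), circRNA103 of Ttc3 (47, 31 and 45), circRNA1651 of Acaca (53, 42 and 20) and circRNA1482 (35, 37 and 42). The first 12 circRNAs held 13.4% of junction reads.

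Of the 12, circRNA1537 (intergenic, 81, 82 and 0 reads) and ciRNA81 of Ibtk (60, 55 and 0 reads) were absent from library 3. A count of 0 allows up to 3 reads, so these gaps are larger than counting error. Of 107 circRNAs with at least 10 reads in a library, 33 (30.8%) had 0 in another: 15 of 60 exonic, 7 of 12 intronic and 11 of 35 intergenic ones.

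**Figure D5:**
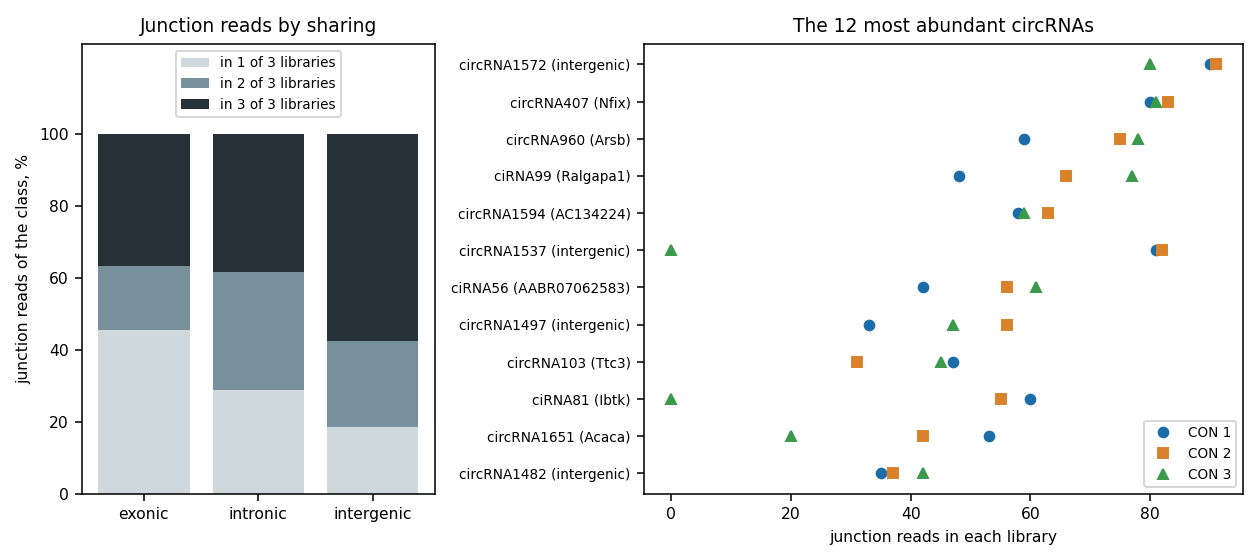
Left, junction reads of each circRNA class in the 3 CON libraries, in percent, by the number of libraries that share the circRNA. Right, junction reads in each library of the 12 most abundant circRNAs, where circRNA1537 and ciRNA81 have 0 reads in library 3 and circRNA407 of Nfix has 80 to 83 reads in each.

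Col1a1 was the host with the most junction reads, with 47 circRNAs and 112, 247 and 114 reads. Of these circRNAs, 3 were in all libraries and 38 in 1 only. CircRNA2674 had 75 reads and circRNA2672 62 reads in library 2 and 0 in the others. CircRNA1599, spanning 339 bases, was found in each, with 14, 19 and 18 reads. Col1a1 was also the most abundant linear mRNA. Runx2 had 6 circRNAs with 36, 18 and 33 reads. Col2a1 had 5 circRNAs with 12, 6 and 3 reads, and Hapln1 3 with 10, 5 and 10 reads. Of gene symbols at 3 to 10 FPKM 20.9% hosted a circRNA, against 8.83% at 1 to 3 FPKM and 17.3% at 100 FPKM or more.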

How the data were processed

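RNA of condylar cartilage was sequenced on an Illumina HiSeq after ribosomal RNA was removed. According to the methods, cutadapt (version 1.9) trimmed the reads, FastQC checked their quality, Bowtie2 and Hisat2 aligned them, and StringTie built and quantified transcripts. The sources used here name neither a genome build nor a circRNA caller, so coordinates are those of the deposited files, except for RefSeq sequences. For genes, the authors deposited raw counts as whole numbers beside FPKM. For lncRNAs, deposited values are FPKM of each transcript, where 0.0001 stands for none, and a read coverage from StringTie, which was not used. For circRNAs, the authors deposited counts of junction reads and a score (SRPBM) that is the count times 1 factor per library.

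The 3 CON libraries were described by mean, SD and CV of FPKM, with no test and no group comparison. TMM factors for scaling came from edgeR 4.0.16 in R 4.3.3, on genes of every type at a mean of at least 1 FPKM. The biological CV, also from edgeR, used the protein-coding genes at that level, and the steps were tested on simulated data. A symbol was paired with its protein-coding gene of highest mean FPKM. Col1a2 (listed as NEWGENE_621351) and Car9 (Ca9) were found by other names, and 443 of 465 listed genes were matched, the others being not analysed here. Deviations used log2 of FPKM plus 0.1. Members and the 33 lists were chosen with earlier results of these data known. Named genes are the 25 with the highest FPKM, up to 4 per list and members of cell type lists at 0 counts, the 10 highest and 10 lowest CVs at 10 FPKM or more, the first 10 lncRNA transcripts and 2 per class, and the first 12 circRNAs and 3 per type. Other genes named were chosen after their values were seen. Some genes that the rule takes are not reported here. Alternatives were TMM scaling, other filters and pseudocounts, and each library left out in turn.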

Additional observations from a re-analysis of the deposited data

How the results depend on the processing

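The number of protein-coding genes at 1 FPKM or more was 11557 when each library had to pass, 13061 at a mean of 0.5 FPKM, and 11978 to 12005 without 1 library. The share of the 10 most abundant genes was 22.7% of counts in place of 20.3% of FPKM. The median CV was 6.36% at 10 FPKM or more and 11.8% without a filter on level, against 8.25%, and 6.06% to 7.32% without 1 library, where only 2 libraries remain. The median biological CV was 12.8% to 14.4% without 1 library. The circRNAs found in all libraries numbered 178 at 2 reads or more and 76 at 5 reads or more in each, against 283, and 441 to 474 were shared by pairs of libraries. Under TMM scaling 4 of 96 list deviations changed sign, all of them within 0.0329 of 0 on the log2 scale, and 0 did with a pseudocount of 1. The ranking of the first 12 circRNAs held the same 12 by SRPBM. No paired analysis was possible because only 1 group is described. With 3 libraries, an SD is imprecise, and junction reads are few, so depth limits which circRNAs can be seen in a library. The limit of 3 counts given for genes at 0 covers counting error only, as PCR copies are not told apart.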
